A study of Caenorhabditis elegans with 10 samples.

Results

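Histone transcripts were followed in fed and fasted Caenorhabditis elegans adults of 2 kinase mutant strains. A probe set counted as a histone probe set where every gene symbol annotated to it began with his, hil, htz or htas followed by a number. This gave 65 of the 22548 probe sets tested, and 1 further probe set that names a histone together with another gene was left out. The members read 9 times H2A, 10 times H2B, 11 times H3 and 12 times H4 (together 42 core probe sets), 7 times an H3 variant, 3 times an H2A variant and 13 times a linker histone. They cover 82 histone gene symbols, of which 36 have a probe set annotated to them alone. The near-identical core genes share the rest: 42 probe sets carry 1 symbol and 23 carry several, so a shared value cannot be split between its genes. By suffix, 18 of the 65 end in _at only, 6 in _s_at and 41 in _x_at. The last 2 suffixes mark probes that may match further transcripts. A single symbol, as for the _x_at probe sets of his-2, his-4, his-6 and his-42, therefore does not make a value specific to that gene.

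Histones package DNA. An octamer of H2A, H2B, H3 and H4 forms the nucleosome core, and linker histones of the H1 family bind where DNA enters and leaves it. Core histones are made mostly in S phase from clustered multicopy genes, and most of their mRNAs end in a stem loop in place of a poly(A) tail. Variants such as H3.3 and H2A.Z come from single genes read throughout the cell cycle, usually as polyadenylated mRNA, and enter chromatin outside replication. In adult worms the germline and the embryos held in the mother are the sites of cell division. Labelling by in vitro transcription from the 3′ end commonly starts at a poly(A) tail, and which histone RNA forms it read here was not tested.

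Mutants of mek-1 and of mlk-1 were compared, genes of successive kinases in a JNK-type stress cascade. Which alleles they carry is not labelled, and no wild type was analysed here. On adult day 2 worms were placed on fresh plates that held OP50-1 bacteria as food (fed) or held none (fasted), and total RNA was taken on adult day 4. The mek-1 strain had 3 fed and 3 fasted arrays and the mlk-1 strain 2 fed and 2 fasted arrays, all read in 1 colour. Separate cultures are not stated for the replicates, whose spread may be technical, and a p-value measures that spread only.

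Values below are the authors' intensities, fed before fasted and mek-1 before mlk-1, each group in order of its replicate number. Differences are on the scale of log2(intensity + 16), with the standard error of a limma fit over all 10 arrays and a two-sided p adjusted by Benjamini-Hochberg over all probe sets tested. A probe set was called at an adjusted p under 0.05. Same-numbered fed and fasted arrays deviated together. For the fasting effects named, the fit with the replicate number as a block, shared by the strains, is therefore given where it changed the call. Array medians ran from 70.5 to 74.9. No filter on low values was applied, and 59 of the 65 histone probe sets lay above the array median on at least 1 array. The 6 others, for htas-1, his-17 with his-40, his-69, his-70, his-73 and hil-8, lay between 18.3 and 52.1 on all arrays, where the added constant compresses differences. The mek-1 probe set checked the labels: it read 128, 139 and 119, then 67.6, 66.5 and 72.5 in the mek-1 strain, against 1138 and 1137, then 1350 and 1387 in the mlk-1 strain. Neither mlk-1 probe set passed the threshold between the strains (-0.19 ± 0.11 and -0.17 ± 0.10). On the second principal component the fed and the fasted mek-1 array with number 3 stood away from the others, and counts are given with and without them.

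**Figure D1:**
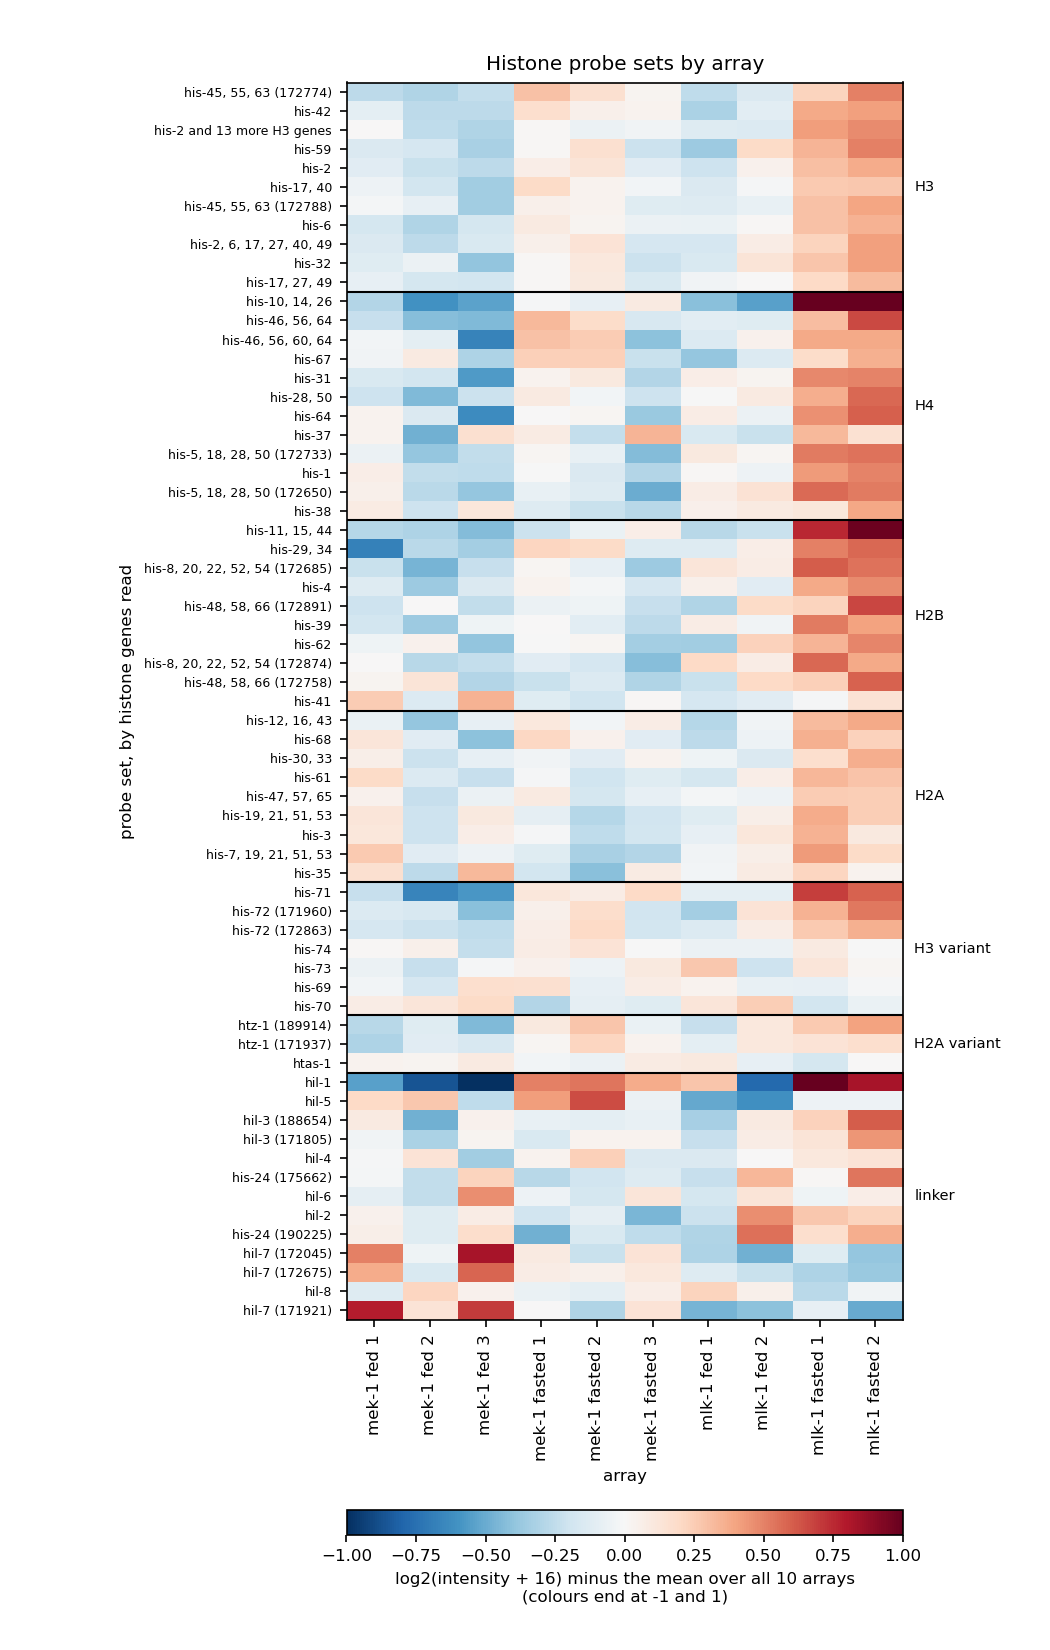
The 65 histone probe sets (rows, by class) on the 10 arrays (columns). Colour is log2(intensity + 16) minus the probe set's mean over all arrays, and the 2 mlk-1 fasted arrays are the reddest columns over the H3, H4, H2B and H2A blocks.

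What fasting did to histone transcripts was asked first as the equal mean of the effects in the strains. Fasting raised 15 histone probe sets, where 4.1% of all probe sets rose, and lowered 1, where 3.8% of all fell. The increases were 6 of 11 H3, 3 of 12 H4, 3 of 10 H2B and 1 of 9 H2A probe sets, 1 of 7 for H3 variants and 1 of 13 linker probe sets. The decrease was an H3 variant. With the replicate block 36 rose, where 12.4% of all did, and 1 fell, where 7.2% of all did. These 36 held all 11 H3, 10 of 12 H4 and 6 of 10 H2B, but 2 of 9 H2A probe sets. The 16 calls all passed in that fit too.

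The typical size was small. The median difference was 0.30 for H3, 0.33 for H4, 0.26 for H2B and 0.15 for H2A, against 0.04 for all probe sets. For the H3 variants it was 0.11 and for linker histones -0.02, which became 0.045 without both mek-1 arrays numbered 3. Of the 42 core probe sets 39 had a value above 0, against 61.9% of all probe sets. The count of 16 became 6 when either mlk-1 fasted array was left out, 7 on leaving out mlk-1 fed 1 and 9 on leaving out either mek-1 fasted 1 or 2. Without both mek-1 arrays numbered 3 it was 28. The share of all probe sets called moved too, from 7.9% to 4.05% and 3.25% without mlk-1 fasted 1 or 2. It was 5.04% without mlk-1 fed 1, 4.51% and 4.79% without mek-1 fasted 1 or 2, and 11.5% without both arrays numbered 3. Many of the probe sets share sequence, so their calls are not separate observations. In RNA of whole animals, more cells of a type and more RNA per cell cannot be told apart.

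**Figure D2:**
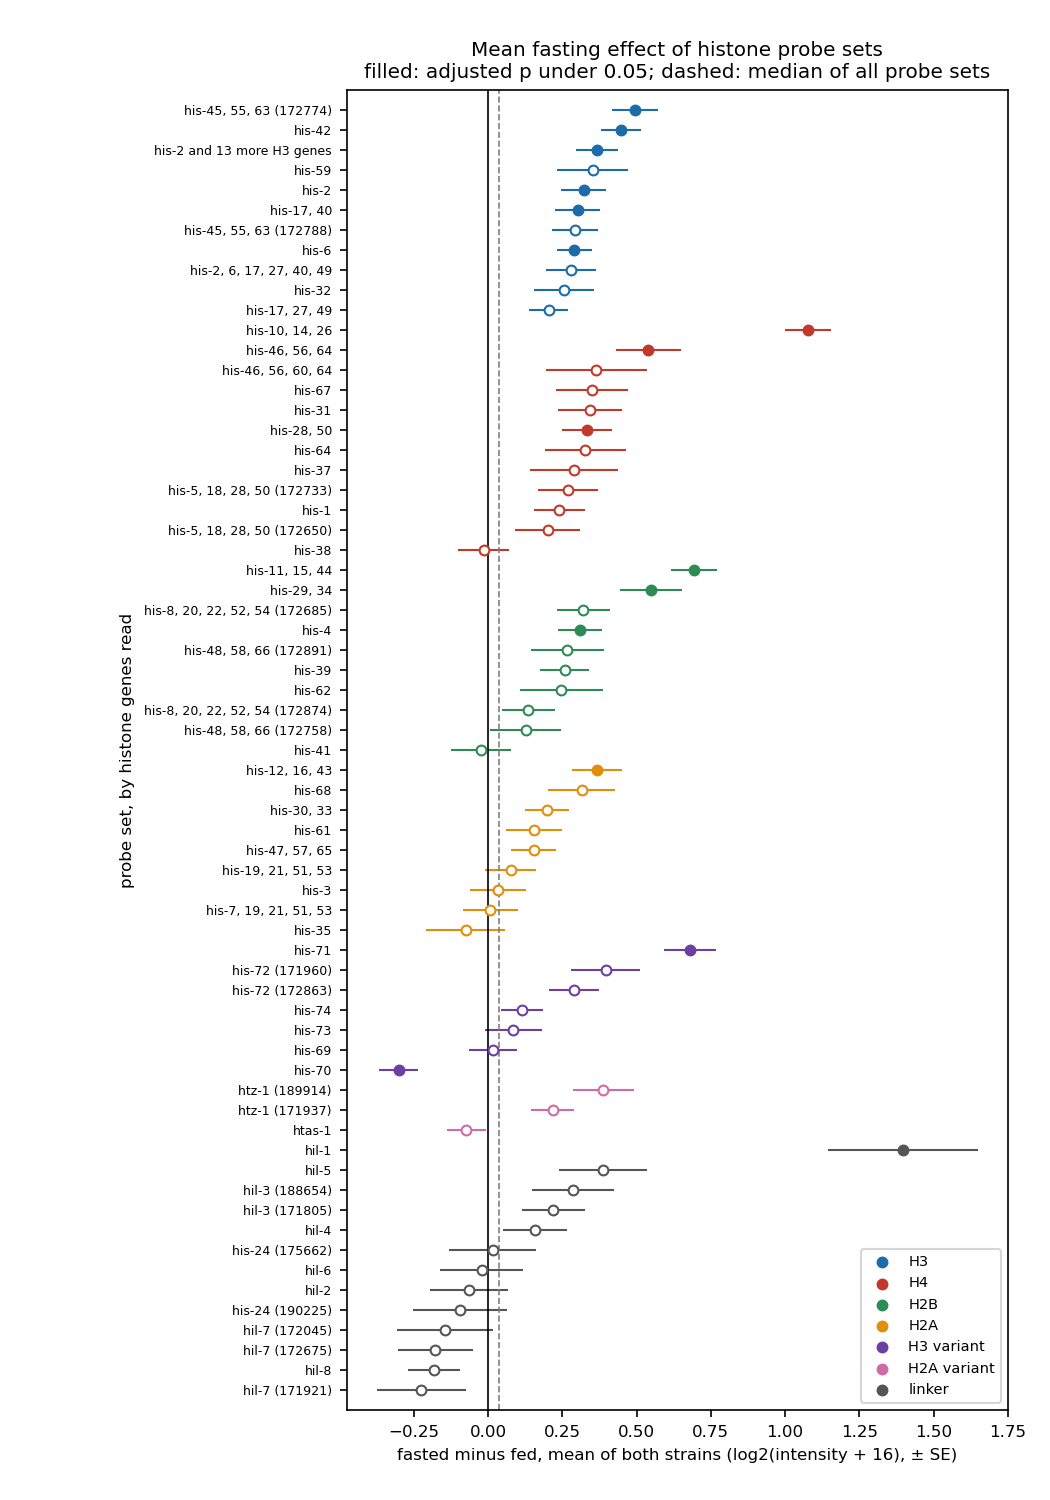
Mean fasting effect (fasted minus fed, averaged over the strains, log2(intensity + 16), bars ± 1 SE) of each histone probe set, grouped by class and sorted within it. Filled points have an adjusted p under 0.05, and the dashed line is the median of all probe sets at 0.04. H3 lies wholly right of that line, from 0.20 to 0.49, while linker histones lie on both sides of 0.

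H3 and H4 form the tetramer at the centre of the nucleosome. Among H3, the probe set shared by his-45, his-55 and his-63 read 1459, 1417 and 1482, then 2144, 1954 and 1779 in mek-1, and 1462 and 1582, then 2047 and 2481 in mlk-1. Every fasted array lay above every fed array of either strain. It rose by 0.49 ± 0.08 (limma, adjusted p = 0.00646), the highest H3 value. The other probe set for the same genes had 0.29 (adjusted p = 0.056, 0.0077 with the block).

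The his-42 probe set read 1118, 996 and 998, then 1345, 1243 and 1226 in mek-1, and 960 and 1113, then 1564 and 1593 in mlk-1. Again no fasted array fell among the fed ones, and the mlk-1 fasted pair was highest. It rose by 0.45 ± 0.07 (adjusted p = 0.00522). A probe set shared by 14 H3 genes, his-2, his-6, his-9 and his-13 among them, read 1148, 958 and 923, then 1155, 1097 and 1117 in mek-1, and 1046 and 1036, then 1528 and 1592 in mlk-1. Here the mek-1 groups overlapped while the mlk-1 groups lay far apart, and the mean rose by 0.37 ± 0.07 (adjusted p = 0.0157). The his-2 probe set rose by 0.32 ± 0.08 (adjusted p = 0.036), his-6 by 0.29 ± 0.06 (adjusted p = 0.0186) and the dim probe set of his-17 with his-40 by 0.30 ± 0.08 (adjusted p = 0.0461).

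The lowest H3 value was that of his-17, his-27 and his-49 (0.20, adjusted p = 0.0978, 0.040 with the block), which also was the brightest H3 probe set. The calls for his-42 and for his-45, his-55 and his-63 held without any single array. The other 4 H3 calls did not hold without mlk-1 fed 1, mlk-1 fasted 1 or mlk-1 fasted 2. Those of his-2, his-6 and his-17 with his-40 were also lost without mek-1 fasted 1 or 2, those of his-2 and his-17 with his-40 without mek-1 fed 2 or 3, and those of the 14-gene probe set and of his-17 with his-40 without mlk-1 fed 2.

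H4 held the largest change of any core probe set. The probe set of his-10, his-14 and his-26 read 171, 134 and 141 in fed mek-1 and 211, 200 and 227 in fasted mek-1. It read 155 and 141 in fed mlk-1 and 500 and 514 in fasted mlk-1. The fed arrays of both strains overlapped, the mek-1 fasted arrays lay just above them, and the mlk-1 fasted arrays stood far above all. The mean rise was 1.08 ± 0.08 (adjusted p = 8.04e-05), or 2.11-fold.

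The probe set of his-46, his-56 and his-64 read 654, 570 and 563, then 966, 878 and 688 in mek-1, and 715 and 704, then 956 and 1225 in mlk-1. Fasted arrays lay above fed ones within each strain, but mek-1 fasted 3 lay below both mlk-1 fed arrays. It rose by 0.54 ± 0.11 (adjusted p = 0.0201). The probe set of his-28 and his-50 rose by 0.33 ± 0.09 (adjusted p = 0.0479) with mek-1 groups that overlapped. The his-38 probe set had the lowest H4 value at -0.02 (adjusted p = 0.951), and the brightest, his-37, had 0.29 ± 0.15 (adjusted p = 0.299, 0.026 with the block). The call for his-46, his-56 and his-64 was lost without mek-1 fasted 2, mlk-1 fed 1, mlk-1 fed 2 or mlk-1 fasted 2, and that for his-28 and his-50 without any single array other than mek-1 fed 3 or mek-1 fasted 3.

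H2A and H2B pair as dimers that flank the tetramer. The H2B probe set of his-11, his-15 and his-44 read 117, 114 and 104, then 124, 138 and 153 in mek-1, and 117 and 123, then 256 and 303 in mlk-1. It followed the same order as his-10, his-14 and his-26, with both mlk-1 fasted arrays far above the other 8. It rose by 0.69 ± 0.08 on average (adjusted p = 0.000967). The probe set of his-29 and his-34 read 273, 366 and 349, then 521, 511 and 407 in mek-1, and 405 and 467, then 637 and 673 in mlk-1. It rose by 0.55 ± 0.11 (adjusted p = 0.0156), which failed the threshold on leaving out mlk-1 fed 1 or either mlk-1 fasted array. The his-4 probe set rose by 0.31 ± 0.07 (adjusted p = 0.0392), which did not hold without mek-1 fed 2, mek-1 fasted 1 or 2, or any mlk-1 array. At the low end his-41 had -0.02 (adjusted p = 0.928), and the brightest H2B probe set, of his-48, his-58 and his-66, had 0.13.

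Among H2A, the probe set of his-12, his-16 and his-43 was the only one called, in the fit with no block. It read 1191, 950 and 1175, then 1337, 1222 and 1310 in mek-1, and 1019 and 1215, then 1553 and 1624 in mlk-1. All 5 fasted arrays lay above all 5 fed ones, by a narrow margin in mek-1, and the rise was 0.37 ± 0.08 (adjusted p = 0.0328). The call was lost without any one of the 3 mek-1 fasted arrays, mlk-1 fed 1, mlk-1 fasted 1 or mlk-1 fasted 2. The brightest H2A probe set, of his-47, his-57 and his-65, had 0.15 (adjusted p = 0.279). The lowest was his-35, which read 1512, 1125 and 1700, then 1190, 1008 and 1429 in mek-1, and 1323 and 1430, then 1571 and 1384 in mlk-1. Its groups overlapped throughout (-0.07 ± 0.13, adjusted p = 0.819).

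**Figure D3:**
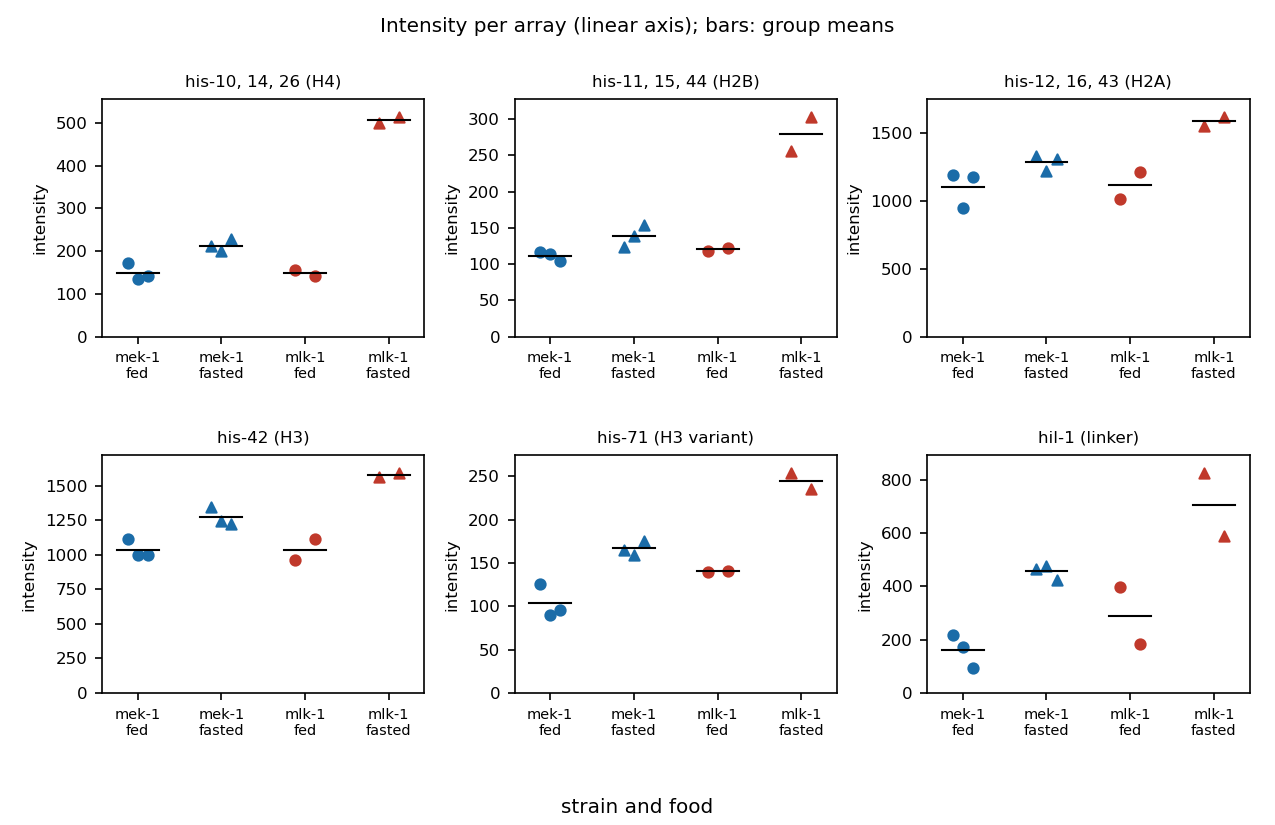
Intensity on each array (points, linear axis from 0) for 1 probe set of each class named, with the group mean as a bar. For his-10, 14, 26 and for his-11, 15, 44 the 2 mlk-1 fasted arrays stand far above the other 8, while for hil-1 every fasted array of both strains lies above every fed array.

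The probe sets of his-10, his-11, his-12 and his-42 and their copies described above read genes that lie together. In the RefSeq annotation of the worm (WBcel235), 67 of the 82 histone genes lie in 14 runs of neighbours no more than 5 kb apart, and 15 lie alone. The longest run holds 13 genes, his-9 to his-16, his-25, his-26 and his-42 to his-44. There were 4 probe sets annotated to genes of this run only, 1 for each core class. All 4 were called in the mean fasting effect, where 4.1% of all probe sets rose. Their mek-1 effects ran from 0.23 to 0.48 and their mlk-1 effects from 0.51 to 1.68. In mek-1 alone only that of his-10, his-14 and his-26 was called, and in mlk-1 alone all but that of his-12, his-16 and his-43. In the run his-29 to his-34, also with 4 such probe sets, mek-1 effects ran from 0.04 to 0.52 and mlk-1 effects from 0.35 to 0.57. There only the probe set of his-29 and his-34 was called in the mean effect. In the run his-1 to his-4 the mek-1 effects were -0.14 to 0.23 and the mlk-1 effects 0.21 to 0.48. There only the his-2 and his-4 probe sets were called in the mean effect. Whether the long run stands apart was not tested.

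Replication-independent variants did not move as 1 group. H3.3, which replaces H3 at transcribed genes, is encoded by his-71 and his-72. The his-71 probe set read 126, 89.9 and 95.5, then 165, 159 and 176 in mek-1, and 140 and 141, then 254 and 235 in mlk-1. Fasted arrays of each strain lay above all fed arrays of either strain. It rose by 0.68 ± 0.09 (adjusted p = 0.00226), and the call held without any single array. The brighter his-72 probe set read 3668, 3557 and 3455, then 4319, 4756 and 3640 in mek-1, and 3757 and 4352, then 4959 and 5278 in mlk-1. Its mek-1 fasted 3 array lay among the fed arrays, and the difference was 0.29 ± 0.08 (adjusted p = 0.0722, 0.017 with the block). The other his-72 probe set had 0.40 ± 0.12 (adjusted p = 0.0757, 0.008 with the block).

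The only decrease was that of his-70, a further H3.3-type gene. Its dim probe set read 28.1, 29.6 and 31.8, then 18.3, 23.3 and 22.6 in mek-1, and 29.6 and 33.7, then 21.003 and 24.1 in mlk-1. All fasted arrays lay below all fed arrays, and it fell by 0.30 ± 0.07 on the log2 scale (adjusted p = 0.0258). With no added constant the value was -0.49, since the probe set lies near the floor. The call was lost without mek-1 fasted 1, mlk-1 fed 2, mlk-1 fasted 1 or mlk-1 fasted 2. The remaining H3 variants, his-69, his-73 and his-74, had 0.02, 0.09 and 0.11 (adjusted p from 0.414 to 0.947).

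For the H2A variants, the brighter probe set of htz-1, the worm's H2A.Z, read 3970, 4424 and 3539, then 5168, 5838 and 4598 in mek-1, and 4116 and 5179, then 5781 and 6366 in mlk-1. Fasted arrays lay above fed arrays within each strain. The difference was 0.39 ± 0.10 (adjusted p = 0.0516, 0.002 with the block). The second htz-1 probe set had 0.22 ± 0.07 (adjusted p = 0.109, 0.027 with the block). The probe set of htas-1, a sperm H2A variant, stayed between 40.3 and 52.1 on all arrays (-0.07, adjusted p = 0.595).

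Linker histones spread widely, from -0.22 for a hil-7 probe set to 1.40 for hil-1. The largest mean effect of all 65 probe sets was that of hil-1, which encodes a linker histone isoform. It read 218, 171 and 93.6 in fed and 466, 477 and 424 in fasted mek-1, and 398 and 183 in fed and 825 and 588 in fasted mlk-1. Every fasted array lay above every fed array, although the fed arrays spread widely. It rose by 1.40 ± 0.25 (adjusted p = 0.0122), or 2.63-fold. Without mek-1 fed 3, the lowest array, the value was 1.24 ± 0.21 (adjusted p = 0.0100). Without mlk-1 fasted 1 the call was lost (1.28 ± 0.30, adjusted p = 0.0595).

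The abundant isoform his-24 (H1.1), with a role in germline chromatin, had 0.02 and -0.09 on its probe sets. The hil-5 probe set read 2353, 2479 and 1720, then 2746, 3234 and 1974 in mek-1, and 1437 and 1338, then 1981 on both arrays in mlk-1. The fasted array was higher in every same-numbered pair while the mek-1 groups overlapped, and the mean effect was 0.39 ± 0.15 (adjusted p = 0.161, 0.004 with the block). The hil-3 probe sets had 0.22 and 0.29, hil-4 had 0.16, hil-2 had -0.06, hil-6 had -0.02 and the dim hil-8 had -0.18. The 3 hil-7 probe sets were all below 0 in the mean of the strains. Their effects were -0.59, -0.43 and -0.19 in mek-1, and 0.14, 0.14 and -0.17 in mlk-1. None of these was called in the fit with no block.

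Fasting was then followed in each strain. In mek-1 animals 4 histone probe sets rose, where 1.31% of all did, and 0 fell, where 3.23% of all did. They were those of hil-1 (1.48 ± 0.32, adjusted p = 0.036), his-71 (0.62 ± 0.11, 0.0154), his-10, his-14 and his-26 (0.48 ± 0.10, 0.0278) and his-45, his-55 and his-63 (0.42 ± 0.10, 0.0461). With the block 10 rose and 3 fell, where 7.68% and 6.7% of all did. In mlk-1 animals 5 rose, where 0.519% of all did, and 0 fell, where 0.852% did. They were those of his-10, his-14 and his-26 (1.68 ± 0.12, adjusted p = 0.000325), his-11, his-15 and his-44 (1.11 ± 0.12, 0.00243), his-71 (0.74 ± 0.14, 0.0373), his-42 (0.60 ± 0.10, 0.0291) and the 14-gene H3 probe set (0.58 ± 0.11, 0.0427). With the block 17 rose and 0 fell, where 3.17% and 2.3% of all did. The probe sets of his-71 and of his-10, his-14 and his-26 were called in both strains. For hil-1 the mlk-1 effect was 1.31 ± 0.39 (adjusted p = 0.189, 0.029 with the block).

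The mek-1 count became 0 when mek-1 fasted 1 or 2 was left out, 1 when mek-1 fed 3 was, and 2 when mek-1 fed 2, either mlk-1 fasted array or both arrays numbered 3 were. Without mek-1 fed 2 these were 1 increase and 1 decrease. The share of all probe sets called in mek-1 was 4.54% with all arrays, and 2.12% and 2.06% without mek-1 fasted 1 or 2. It was 4.56% without mek-1 fed 3, 4.02% without mek-1 fed 2, 3.12% without either mlk-1 fasted array and 5.28% without both arrays numbered 3. The mlk-1 count became 2 without any single mlk-1 array or without mek-1 fasted 1 or 2, 3 without mek-1 fasted 3, and 10 without both mek-1 arrays numbered 3. The share of all probe sets called in mlk-1 was 1.37% with all arrays. It was 1.4% and 0.541% without mlk-1 fed 1 or 2, and 0.443% and 0.452% without mlk-1 fasted 1 or 2. Without mek-1 fasted 1, 2 or 3 it was 0.887%, 1.1% and 1.37%, and without both arrays numbered 3 it was 2.88%. The mlk-1 calls for his-10, his-14 and his-26 and for his-11, his-15 and his-44 held without any single array. In mlk-1 all 42 core probe sets had a value above 0 (median 0.44, against 0.04 for all probe sets), where 59.3% of all did. In mek-1 31 of the 42 did (median 0.16, against 0.04), where 61.5% of all did. Within pairs of the same number, the core median was 0.09, 0.21 and 0.10 in mek-1 and 0.45 and 0.39 in mlk-1.

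By class, the mek-1 H3 median was 0.20 and all 11 H3 probe sets lay above 0. The H4 median was 0.16, that of H2B 0.06 and that of H2A -0.05, with 4 of 9 H2A probe sets above 0. In mlk-1 the medians were 0.42 for H3, 0.46 for H4, 0.46 for H2B and 0.35 for H2A. Linker histones had a median of -0.08 in mek-1, with 5 of 13 probe sets above 0, and of 0.14 in mlk-1, with 11 of 13 above 0. For H3 variants the medians were 0.13 in mek-1 and 0.10 in mlk-1. In 51 of the 65 histone probe sets both mlk-1 fasted arrays lay above both mlk-1 fed arrays, where 28.9% of all did, and these held every H2B, H3 and H4 probe set and 7 of 9 for H2A. The 3 mek-1 fasted arrays lay above the 3 fed ones in 13 of 65, where 12.7% of all did.

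**Figure D4:**
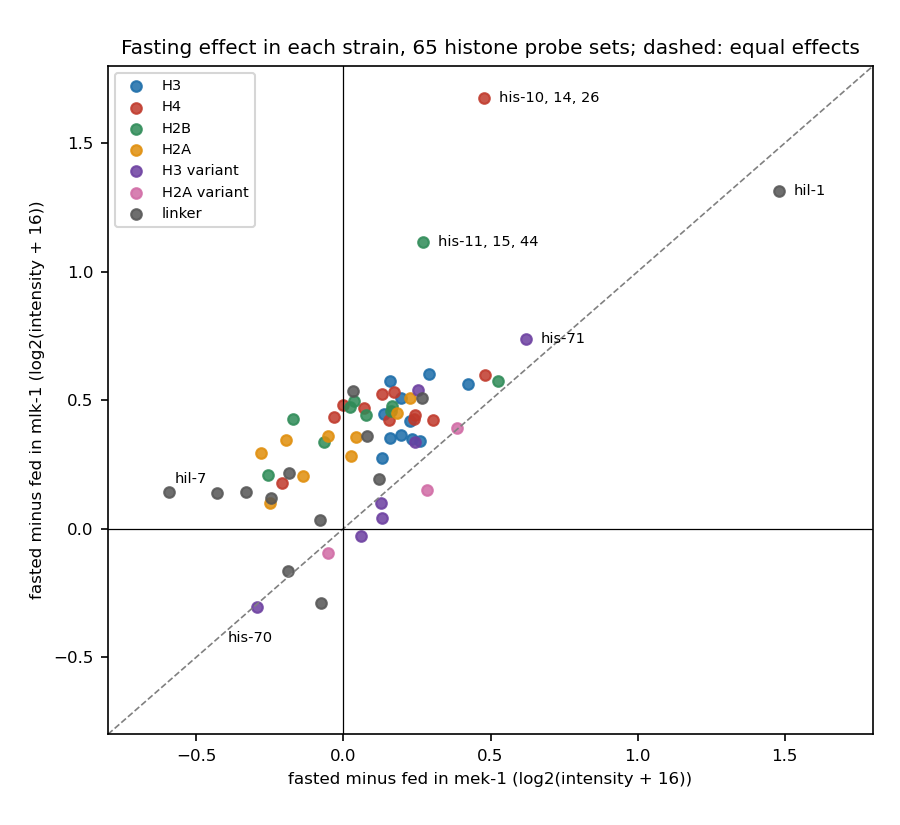
Fasting effect in mek-1 (horizontal axis) against fasting effect in mlk-1 (vertical axis) for the 65 histone probe sets, both as fasted minus fed log2(intensity + 16), coloured by class. The 42 core probe sets all lie above the line of equal effects, and his-10, 14, 26 lies furthest from it.

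Whether the effects differ was tested as an interaction. Only the H4 probe set of his-10, his-14 and his-26 passed, with a mek-1 effect below the mlk-1 effect (-1.198 ± 0.153, adjusted p = 0.0404), where 0.0621% of all probe sets passed in that direction and 0.0133% in the other. The call was lost without any single array and without both arrays numbered 3. Its adjusted p then ran from 0.0532 to 0.258, while the value ran from -1.27 to -1.103. The H2B probe set of his-11, his-15 and his-44 had -0.84 ± 0.15 (adjusted p = 0.22, 0.08 with the block). For his-71 the difference was -0.12 (adjusted p = 1.00) and for hil-1 it was 0.17. All 42 core probe sets had a value below 0 (median -0.31, against -0.003 for all probe sets), where 49.3% of all lay above 0. With quantile normalization the median was -0.31 and again 0 of 42 lay above 0, and without both mek-1 arrays numbered 3 it was -0.29, with 41 of 42 below 0. The median was 0.01 for H3 variants (-0.012 without both mek-1 arrays numbered 3) and 0.04 for H2A variants. For linker histones it was -0.28, with 11 of 13 probe sets below 0.

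The mean strain difference, mek-1 minus mlk-1, was asked last. There were 9 histone probe sets lower in mek-1, where 2.44% of all were, and 0 higher, where 0.603% were. They were 4 of 10 H2B, 4 of 12 H4 and his-71. The lower ones included both probe sets of his-8, his-20, his-22, his-52 and his-54, of which the first read 306, 257 and 305, then 367, 339 and 277 in mek-1, and 395 and 380, then 557 and 534 in mlk-1. Each mlk-1 array lay above every mek-1 array, with a difference of -0.56 ± 0.09 (adjusted p = 0.0109). The second had -0.51 (adjusted p = 0.0197). The others were his-10, his-14 and his-26 (-0.60 ± 0.08, 0.00434), his-11, his-15 and his-44 (-0.52, 0.00893), his-39 (-0.40, 0.0382), his-28 with his-50 (-0.42, 0.0352), both probe sets of his-5, his-18, his-28 and his-50 (-0.54, 0.0352, and -0.49, 0.0375) and his-71 (-0.45 ± 0.09, 0.0284).

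The strain difference was then taken apart by food. In fed animals the core median was -0.09, with 32 of 42 below 0, and in fasted animals -0.43, with 42 of 42 below 0. For his-10, his-14 and his-26 the fed difference was 0.002 and the fasted one -1.195. For his-71 (-0.40 fed, -0.51 fasted) and for the first probe set of his-8 and its copies (-0.40 fed, -0.72 fasted) the strains lay apart on food too. These separate differences are given with no test. The count of 9 became 2 when either mlk-1 fasted array was left out and 3 when either mlk-1 fed array was. Leaving out mek-1 fasted 2 gave 4, and leaving out mek-1 fasted 1 gave 6. The share of all probe sets called moved from 3.05% to 1.68% and 1.28% without mlk-1 fasted 1 or 2. It was 2.05% and 1.49% without mlk-1 fed 1 or 2, 2.55% without mek-1 fasted 2 and 1.78% without mek-1 fasted 1. The calls for his-10, his-14 and his-26 and for his-11, his-15 and his-44 held without any single array.

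**Figure D5:**
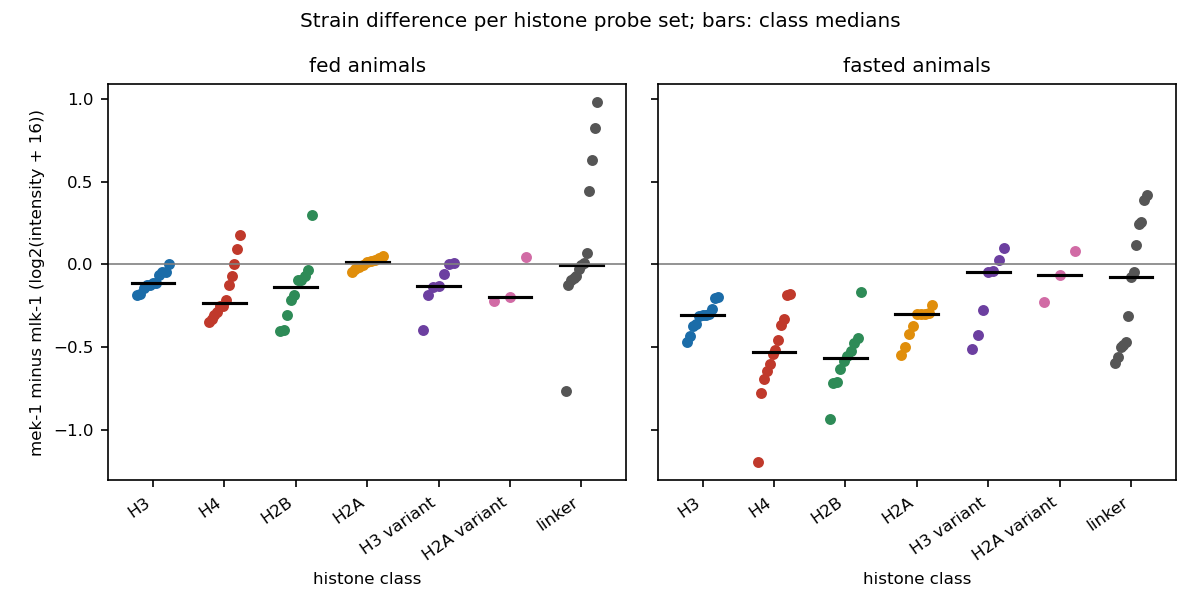
Strain difference (mek-1 minus mlk-1, log2(intensity + 16)) of each histone probe set in fed and in fasted animals, by class. In H4 and H2B the fasted values lie furthest below 0, with medians of -0.53 and -0.57 against -0.23 and -0.14 in fed animals.

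Linker histones had strain differences on both sides of 0 (median -0.04, with 6 of 13 probe sets above 0), and none was called. The value for hil-1 was -0.68 ± 0.25 (adjusted p = 0.253) and those for his-24 were -0.27 and -0.32. The hil-2 value was -0.31, those of hil-3 were -0.17 and -0.25, that of hil-4 was -0.04, and hil-6 and hil-8 both had 0.01. Values were higher in hil-7 and hil-5. The brightest of the 3 hil-7 probe sets read 545, 341 and 510, then 310, 248 and 341 in mek-1, and 219 and 228, then 290 and 212 in mlk-1. Fed mek-1 arrays lay above all mlk-1 arrays, and the mek-1 fasted arrays overlapped the mlk-1 range. Its mean strain difference was 0.61 ± 0.15 (adjusted p = 0.072), and its fasting effect in mek-1 was -0.59 (adjusted p = 0.133, 0.015 with the block). The other hil-7 probe sets had strain differences of 0.54 (adjusted p = 0.144) and 0.43 (adjusted p = 0.130). For hil-5 it was 0.51 ± 0.15 (adjusted p = 0.13).

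Genes that serve histones were counted in the mean fasting effect on 1 probe set per gene, where 4.21% of 17118 genes rose and 4.03% fell. With the block 12.5% of these genes rose and 7.54% fell. Of 23 genes for histone supply and chaperones 1 rose, lin-53, a histone-binding chaperone subunit (0.43 ± 0.09, adjusted p = 0.0237), and 0 fell (median 0.11), against 4 and 1 with the block. The stem-loop binding protein gene cdl-1, named for its role outside the naming rule, had 0.21 (adjusted p = 0.174, 0.025 with the block). Of 28 S phase and cell cycle genes 2 rose, cyb-1 (0.35 ± 0.06, 0.0127) and the thymidylate synthase gene tyms-1 (0.40 ± 0.10, 0.0448), and 0 fell (median 0.18). The cyb-1 gene encodes cyclin B, which acts at entry into mitosis and not in S phase. With the block 12 of the 28 rose and 0 fell. In the difference between the strains' effects the list had a median of 0.01 and 0 calls.

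In the same mean fasting effect, none of 24 histone methyltransferase and demethylase genes, 15 acetyltransferase and deacetylase genes and 6 HP1 and linker partner genes was called (medians 0.17, 0.05 and 0.18). With the block 6, 0 and 2 of them rose and none fell. In the mek-1 fasting effect alone 1 gene of the 24 in the methyltransferase and demethylase list was called, as higher, where 1.39% of all genes were. In the mean strain difference 1 gene of that list and 1 of the supply list were called, both as lower in mek-1, where 2.58% of all genes were.

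Marker genes of dividing and other tissues were measured beside the histones, again in the mean fasting effect. None of 15 germline, 15 oocyte and 11 sperm markers was called (medians 0.00, 0.05 and -0.01), while with the block 2, 2 and 0 rose. Of 12 early embryo markers 3 rose (sdz-28 by 0.72, nhr-2 by 0.62 and sdz-38 by 0.26), and 4 did with the block. The mean log2 level of these markers per array ran from 6.72 to 6.79 in fed and 6.86 to 6.98 in fasted mek-1, and from 6.89 to 7.02 in fed and 7.13 to 7.24 in fasted mlk-1. Their median fasting effect was 0.15 in mek-1 and 0.06 in mlk-1. The median of the difference of the effects per marker, mek-1 minus mlk-1, was -0.09, with 0 markers called. In the mean strain difference their median was -0.17 and 1 marker was called, as lower in mek-1, where 2.58% of all genes were.

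Of 11 intestinal markers 6 fell (median -1.08), and 8 did with the block. Their median was -1.18 in mek-1, where 6 fell, and -0.36 in mlk-1, where 3 fell. Of 10 body wall muscle markers 5 fell (median -0.70), and 7 did with the block. Their median was -1.05 in mek-1, where 5 fell, and -0.34 in mlk-1, where 0 fell. The share of all genes that fell was 3.49% in mek-1 and 0.917% in mlk-1. The median of the difference, mek-1 minus mlk-1, was -0.35 for intestine and -0.66 for muscle, with 0 markers called in either list. For the actin control of the array, the log2 ratio of a single 3′ probe set over a single 5′ one was taken. It was 1.06 to 1.45 in fed and 1.51 to 1.78 in fasted mek-1, and 1.46 to 1.56 in fed and 1.38 to 1.69 in fasted mlk-1. The part of these markers and ratios in the histone fasting effects, and in their difference between the strains, was not tested.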

How the data were processed

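The deposited values are linear intensity, 1 per probe set and array, as the authors summarised them. Their method of summary and normalization: not given in the sources used here. Per the labels' protocols, Trizol RNA was labelled by 3′ in vitro transcription with biotin. Of 22625 probe sets 77 controls were left out, and 0 columns lacked a sample. Genes came from the platform annotation, and histone classes from standard worm naming, since the gene table gave no descriptions. limma 3.58.1 (lmFit, then eBayes, under R 4.3.3) fitted 1 mean per group to log2(intensity + 16) over the 10 arrays, with 6 residual and 2.90 prior df, 5 contrasts and Benjamini-Hochberg adjustment at 0.05. The number of arrays limits the precision. The fit was tested on simulated data. Figures used matplotlib 3.10.9 in Python 3.11.15.

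The members, lists and alternatives were chosen with earlier results of these data known. Named were all called probe sets, all variant and linker probe sets, and in each core class the brightest and the highest and lowest mean fasting effect. Lists used 1 probe set per gene. Equal replicate numbers in the labels were taken as pairs, since deviations from the group means of same-numbered fed and fasted arrays correlated at 0.44, 0.67 and 0.57 in mek-1 and 0.35 in mlk-1 over all probe sets. The block was the label's replicate number, shared by the strains. It leaves the fasting estimates as they were but changes those of the strain difference. This shared block also ties arrays of equal number across strains, although nothing in the labels does. Across strains the numbers share 2 pairs per food state, with correlations of 0.15 to 0.33. A block of its own in each strain was added after seeing the data. The alternatives were quantile normalization, constants of 1, 64 or none, leaving out the dimmest 30%, a trended and robust variance, array weights, only probe sets ending in _at, each strain alone, the block, and fewer arrays.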

Additional observations from a re-analysis of the deposited data

Results flagged for a closer look

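The H4 probe set of his-10, his-14 and his-26 was picked out because its fasting effect differed between the strains by the interaction test, at -1.198 (mek-1 minus mlk-1, limma, adjusted p = 0.0404). The mek-1 effect was 0.48 ± 0.10 and the mlk-1 effect 1.68 ± 0.12. It passed under 5 of 20 alternatives, with array weights (adjusted p = 0.0131), the replicate block (0.0214), that block within each strain (0.0275, chosen after seeing the data), a constant of 64 (0.0391) and without the dimmest 30% (0.0462), and the highest adjusted p was 0.258. No group holds 4 arrays, so single arrays could not be tested as outliers.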

How the results depend on the processing

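Over the alternatives, 0 of the 322 values of the 16 called probe sets in the mean fasting effect changed sign, and 73 lost the call. The calls of 5 held under all 20 alternatives that gave them a value (his-10, his-14 and his-26; his-11, his-15 and his-44; his-42; his-45, his-55 and his-63; his-71). The setting with only _at probe sets left these 5 out. The count of 16 became 26 with array weights, 28 without both mek-1 arrays numbered 3, 37 with the replicate block, 3 of the 18 probe sets ending in _at, and 6 to 23 leaving out 1 array. The share of all probe sets called was 7.9% in the main fit. In the same order it became 13.4%, 11.5%, 19.6%, 7.14% of _at ones, and 3.25% to 8.82%. The mek-1 count of 4 became 9, 2, 13 and 1 in the same order, 1 with the strain alone, and 0 to 4 leaving out 1 array. Of the 9 with array weights 1 fell, and of the 13 with the block 3 fell. For mek-1 the share of all probe sets called was 4.54% in the main fit. In the same order it became 10.1%, 5.28%, 14.4% and 3.83%, then 2.73% with the strain alone. Leaving out 1 array gave 2.06% to 4.56%. The mlk-1 count of 5 became 17 with the block, 10 without both mek-1 arrays numbered 3, 0 of the _at probe sets, 3 with no constant or the strain alone, 2 with the trended and robust variance, and 2 to 5 leaving out 1 array. For mlk-1 the share of all probe sets called was 1.37% in the main fit. In the same order it became 5.46%, 2.88%, 1.22%, 1.53%, 1.67%, 1.59%, and 0.443% to 1.97%. With the replicate block set within each strain, an alternative chosen after seeing the data, the counts were 35 for the mean, 16 for mek-1 and 24 for mlk-1, where 20%, 14.5% and 5.84% of all probe sets were called, and the single call for the difference held. The count of 9 for the strain difference, all lower in mek-1, became 14 with array weights (12 lower, 2 higher). It became 14 with the shared block (11 lower, 3 higher), whose numbers are not shown to pair arrays across strains. It was 0 of the _at probe sets, 6 with the trended and robust variance and 2 to 9 leaving out 1 array. For the strain difference 3.05% of all probe sets were called in the main fit, 4.87% with array weights and 6.67% with the shared block. The share was 3.05% of _at ones, 3.21% with the trended and robust variance, and 1.28% to 3.45% leaving out 1 array. Leaving out mek-1 fed 2 gave 5 lower and 3 higher, and leaving out mek-1 fasted 3 gave 6 lower and 1 higher. Without both mek-1 arrays numbered 3 there were 8 lower and 1 higher. The single call for the difference became 0 with quantile normalization, a constant of 1 or none, the trended and robust variance, the _at probe sets, fewer mek-1 arrays and leaving out any 1 array. For _at probe sets the lower counts follow from the construction. Every called probe set ending in _at was still called in that setting, and all other called ones were left out of it. The sizes were lower too. Over these 18 core, variant and linker probe sets the median mean fasting effect was 0.05, against 0.03 for all _at probe sets. Of the 18, 11 lay above 0. Their median was 0.05 in mek-1 and 0.20 in mlk-1, against 0.03 in each for all _at probe sets. Their median strain difference was -0.05, against 0.003. For the other settings the cause was not tested.

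Of the uncalled named probe sets 8 changed sign in 27 values, none of them called. Leaving out 1 array, his-24 ran from -0.13 to 0.16 and, on its second probe set, from -0.31 to 0.12, his-38 from -0.083 to 0.053, hil-6 from -0.098 to 0.083, hil-2 from -0.23 to 0.11, his-41 from -0.098 to 0.024, his-69 from -0.024 to 0.059 and his-73 from -0.033 to 0.20. With quantile normalization his-24 had -0.028, with array weights his-38 had 0.012 and hil-6 0.030, and without both mek-1 arrays numbered 3 his-38 had 0.031, hil-2 0.0091 and hil-6 0.045. The linker median changed from -0.022 to 0.045 in that setting. Signal near background limits the 6 dim probe sets, whose size depends on the constant.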
